A study of Rattus norvegicus with 30 samples.

Results

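Interferon response genes are the transcripts that cells switch on when interferon binds its receptor, and 39 of them were followed in rat heart after a single dose of isoproterenol. They were chosen as named genes, namely the interferon-induced transcription factors, RNA sensors, antiviral proteins, the Isg15 system, GTPases, chemokines and antigen processing genes. The choice was made with earlier results of these data known, so counts over the list are a description. All probe sets carrying one of these symbols were taken, with the older name Ddx58 accepted for Rigi. A probe set was found for 38 of the 39 genes, and Ifi47 had none. Those 38 genes were among the 12451 genes tested, and each was read from its brightest tested probe set.

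The samples were cardiac muscle from male Crl:Wi(Han) rats that received isoproterenol hydrochloride, a beta-adrenergic agonist, or vehicle. In the labels the isoproterenol dose reads 0.5 mg/kg/ml, and the vehicle dose reads 0. Hearts were taken at 1, 3, 24 and 72 h, with 5, 4, 4 and 5 isoproterenol arrays and 3 vehicle arrays at each time, 30 arrays in all. The design text names 48 h as the last time, and the sample labels, which were followed here, give 72 h. The labels call the arrays biological replicates, and each array is called a heart here. The sources used here give neither the age of the rats nor an explicit statement that each array came from its own animal. P-values therefore measure the spread between these arrays, pooled over all groups.

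Type I interferons act through a receptor with the kinases Jak1 and Tyk2, which activate a complex with Stat2 and Irf9 that binds a DNA element called the interferon-stimulated response element (ISRE). Interferon gamma acts through its own receptor, and its target genes carry an element called the gamma-activated sequence (GAS). Irf7 is itself induced and feeds the production of more type I interferon. In mouse hearts after infarction, macrophages are known to carry interferon-induced transcripts.

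Isoproterenol hearts had higher interferon response genes at 72 h and hardly any change before that time. At 72 h, 31 of the 38 measured genes were higher and 1 was lower at an adjusted p of 0.05, against a background of 13.2% higher and 8.82% lower among all 12451 genes. The median change of the 38 genes was 1.45 on the log2 scale, against 0.01 over all genes. The largest changes among them were those of Mx1, Isg15, Cxcl10, Ifit3, Irf7 and Oas1a, at 4.64-fold to 9.09-fold. At 1 h and at 3 h none of the 38 passed the test, with medians of -0.06 and -0.16. At 24 h, 2 were higher and 1 was lower, with a median of -0.08.

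All changes are isoproterenol minus vehicle at the same time, in log2 of the deposited intensity plus 16 after quantile normalisation, and are given with their standard error. Adjusted p-values come from limma with Benjamini-Hochberg adjustment over all tested probe sets. The constant of 16 makes the change of a dim gene look smaller than it is. A whole-tissue array cannot tell more cells of a type from more RNA per cell.

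**Figure D1:**
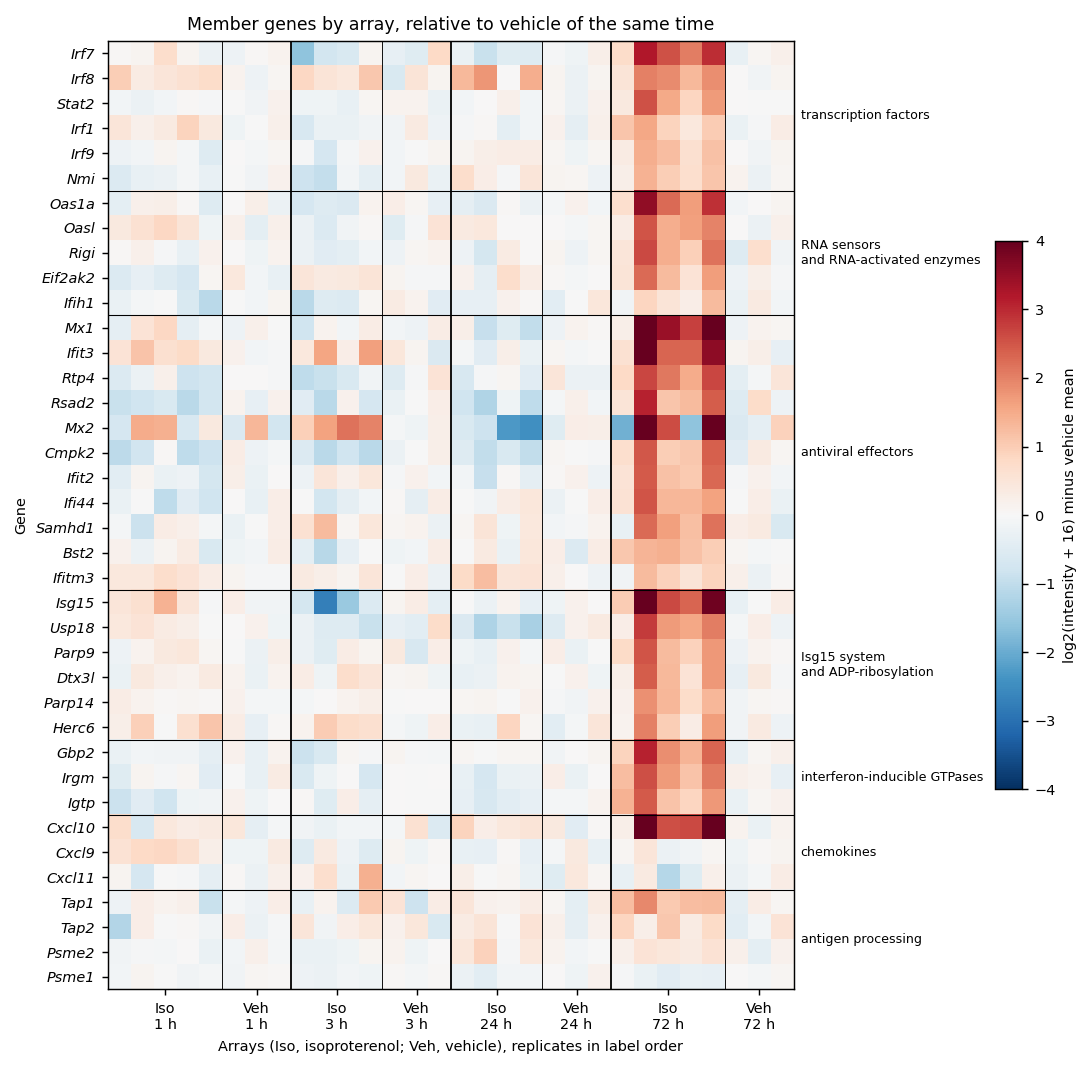
Signal of the 38 measured genes (rows, grouped by role) on each of the 30 arrays (columns, isoproterenol left of vehicle at each time), as log2 signal minus the mean of the vehicle arrays of the same time, with the colour scale ending at 4 in either direction. The 5 isoproterenol arrays at 72 h are warm over most rows, replicate 2 most and replicate 1 least, while the arrays at 1, 3 and 24 h have no such block.

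The heatmap of all arrays shows the time course gene by gene, with each array set against the vehicle hearts of its own time. The rise stands in the 72 h columns, and it differs between the 5 hearts. The rows for Cxcl9, Cxcl11, Psme1 and Psme2 stay near the vehicle level there.

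Among the antiviral effectors, 10 of 11 were higher at 72 h, with a median change of 1.52. Mx1, a dynamin-like GTPase that blocks virus replication, had log2 signals of 6.97, 11.93, 10.19, 9.46 and 11.06 in the isoproterenol hearts at 72 h, against 6.53, 6.87 and 6.82 in the vehicle hearts. Every isoproterenol heart lay above every vehicle heart, with replicate 1 only just above. The change was 3.18 ± 0.561 (adjusted p = 0.000192).

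Ifit3, a protein that binds and helps sequester viral RNA, read 6.23, 10.11, 7.95, 7.96 and 9.19 in the isoproterenol hearts, against 5.73, 5.84 and 5.29 in the vehicle hearts at 72 h. The groups did not overlap, and the order of the hearts was close to that of Mx1. Its change was 2.67 ± 0.461 (adjusted p = 0.000153), and its relative Ifit2 changed by 1.50 ± 0.286 (adjusted p = 0.00044). Both lie side by side on the genome, with no protein-coding gene between them in the RefSeq annotation.

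Rtp4, a chaperone of G-protein-coupled receptors that is also induced by interferon, changed by 1.94 ± 0.325 (adjusted p = 0.000104). Rsad2, the radical-SAM enzyme viperin, changed by 1.68 ± 0.361 (adjusted p = 0.00142). Cmpk2, a nucleotide kinase encoded next to Rsad2, changed by 1.52 ± 0.305 (adjusted p = 0.000754). These neighbours thus changed by like amounts at 72 h.

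Ifi44, an interferon-induced cytoplasmic protein, was higher by 1.47 ± 0.278, and Bst2, a tether that holds budding virus on the cell surface, by 1.20 ± 0.218. Samhd1, which degrades deoxynucleotides, was higher by 1.39 ± 0.374 (adjusted p = 0.00905), with a vehicle mean of 5.033 that lies under the filter level of 5.29, which was set on the values before normalisation. Ifitm3, a membrane protein that blocks virus entry, had the smallest change among the higher effectors, 0.69 ± 0.198 (adjusted p = 0.0137).

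Mx2 was the effector that did not pass at 72 h, at 1.61 ± 0.965 (adjusted p = 0.275), and its probe sets disagreed. The brighter one read 4.91, 11.14, 9.45, 5.21 and 11.48 in isoproterenol hearts, against 6.25, 6.48 and 7.75 in vehicle hearts at 72 h. Replicates 1 and 4 lay below all vehicle hearts and the other 3 far above them. The dimmer probe set read 6.61, 9.16, 8.16, 7.58 and 10.08 in isoproterenol hearts, against 5.24, 5.61 and 6.2 in vehicle hearts, with a change of 2.63 ± 0.439 (adjusted p = 0.000102). Without isoproterenol replicate 1, the brighter probe set also passed (2.49, adjusted p = 0.0324).

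The Isg15 system and its ADP-ribosylation partners were higher at 72 h in all 6 genes, with a median change of 1.34. Isg15, a ubiquitin-like protein that is attached to other proteins, read 7.47, 11.24, 9.11, 8.79 and 10.36 in the isoproterenol hearts, against 6.17, 6.45 and 6.76 in the vehicle hearts. Again replicate 2 was highest and replicate 1 lowest, and the groups did not overlap. The change was 2.93 ± 0.491 (adjusted p = 0.000107).

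Usp18, the protease that removes Isg15 and dampens the type I receptor, changed by 1.67 ± 0.328 (adjusted p = 0.000618). Herc6, a ligase that in mouse attaches Isg15, changed by 1.02 ± 0.339 (adjusted p = 0.0333). Parp9 and the ubiquitin ligase Dtx3l, which work as a pair, and Parp14, an ADP-ribosyltransferase, are 3 genes in a row on the genome. They changed by 1.44 ± 0.273, 1.24 ± 0.295 and 1.08 ± 0.209. A dimmer Parp14 probe set moved by 0.71 ± 0.328 and missed the threshold (adjusted p = 0.141).

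**Figure D2:**
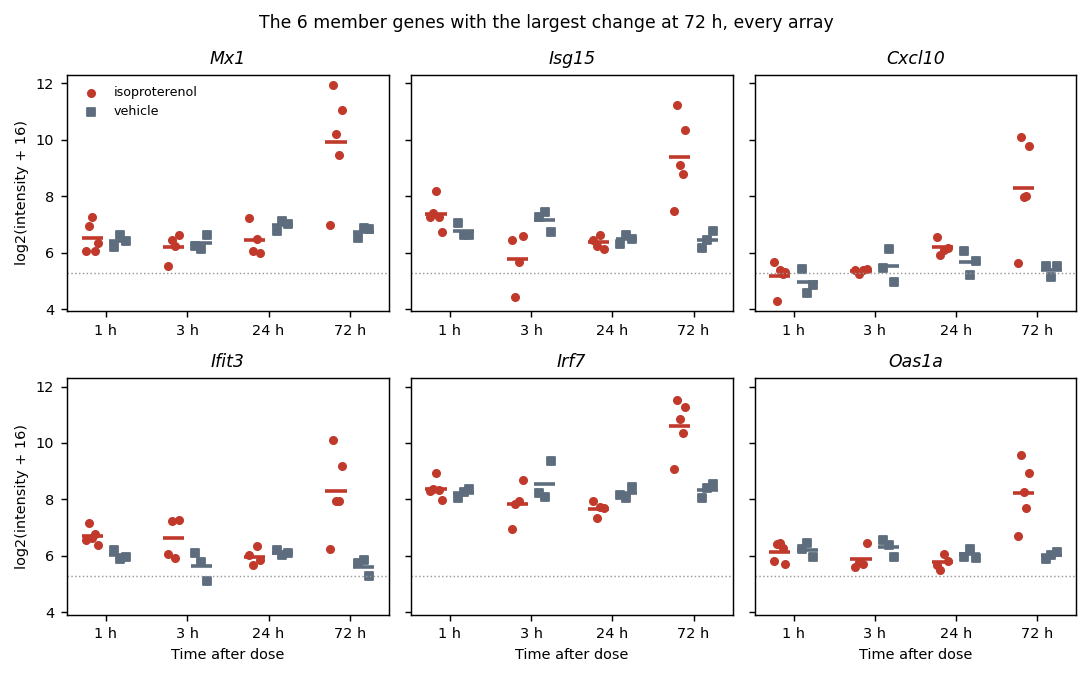
Log2 signal (y axis) of Mx1, Isg15, Cxcl10, Ifit3, Irf7 and Oas1a on every array at 1, 3, 24 and 72 h (x axis), isoproterenol left of vehicle, with bars at group means and a dotted line at the filter level of 5.29. At 72 h the 5 isoproterenol arrays lie above the 3 vehicle arrays for all 6 genes, and they spread over several log2 units for Mx1.

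The plot of single arrays for these genes shows the levels behind the changes. At 1, 3 and 24 h the isoproterenol and vehicle arrays of the 6 genes overlap, apart from Ifit3 at 1 h, where isoproterenol lies above (0.69), and Isg15 at 3 h and Irf7 at 24 h, where it lies below (-1.36 and -0.54). None of these 3 differences passed the test.

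Of the transcription factors, 6 of 6 were higher at 72 h, with a median change of 1.20. Irf7, the factor that drives type I interferon production, read 9.06, 11.52, 10.86, 10.37 and 11.27 in isoproterenol hearts, against 8.04, 8.39 and 8.54 in vehicle hearts. The lowest isoproterenol heart exceeded the highest vehicle heart. The change was 2.29 ± 0.365 (adjusted p = 6.07e-05), a 4.9-fold difference.

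Irf8, a factor of the myeloid lineage, changed by 1.52 ± 0.308 (adjusted p = 0.000859). Stat2 and Irf9, which act together at the ISRE, were higher by 1.40 ± 0.255 and 0.97 ± 0.193. Irf1, which is induced by interferon gamma, was higher by 1.00 ± 0.203 (adjusted p = 0.00079). Nmi, a partner of STAT proteins, was higher by 0.88 ± 0.219 (adjusted p = 0.00503).

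The RNA sensors and RNA-activated enzymes were higher in 4 of 5 genes at 72 h, with a median change of 1.54. Oas1a, which makes the oligoadenylates that activate RNase L, read 6.69, 9.58, 8.27, 7.68 and 8.95 in isoproterenol hearts, against 5.9, 6.02 and 6.14 in vehicle hearts. All isoproterenol hearts were above all vehicle hearts, and the change was 2.21 ± 0.355 (adjusted p = 6.66e-05). Its relative Oasl changed by 1.58 ± 0.3 and the RNA helicase sensor Rigi by 1.54 ± 0.305. Eif2ak2, the RNA-activated kinase that stops translation, changed by 1.25 ± 0.268. Ifih1, the sensor of long double-stranded RNA, did not pass, at 0.56 ± 0.291 (adjusted p = 0.198).

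The interferon-inducible GTPases act on the membranes around intracellular microbes, and 3 of 3 measured were higher at 72 h, with a median change of 1.74. Gbp2 changed by 1.91 ± 0.277 (adjusted p = 1.96e-05) and Irgm by 1.74 ± 0.245 (adjusted p = 1.39e-05). Igtp read 8.48, 9.57, 8.25, 7.95 and 8.84 in isoproterenol hearts on its brighter probe set, against 6.85, 7.17 and 7.29 in vehicle hearts, a change of 1.52 ± 0.238. The dimmer Igtp probe set had overlapping groups and a change of 0.44 ± 0.318 (adjusted p = 0.38).

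The 3 chemokines bind the same receptor, Cxcr3, and are encoded side by side with no protein-coding gene between them, but 1 of the 3 was higher. Cxcl10 read 5.64, 10.1, 7.96, 8.02 and 9.78 in isoproterenol hearts, against 5.52, 5.12 and 5.53 in vehicle hearts at 72 h. The groups did not overlap, but replicate 1 was only just above the highest vehicle heart. Its change was 2.91 ± 0.533 (adjusted p = 0.000297). Cxcl9 changed by 0.05 ± 0.21 (adjusted p = 0.911) and Cxcl11 by -0.27 ± 0.285 (adjusted p = 0.579). The differences between these 3 changes were not tested.

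In antigen processing, 1 of 4 genes was higher and 1 lower at 72 h, with a median change of 0.54. Tap1, a subunit of the peptide pump that feeds MHC class I, read 7.55, 8.24, 7.36, 7.55 and 7.59 in isoproterenol hearts, against 5.94, 6.6 and 6.4 in vehicle hearts. Its change was 1.34 ± 0.304 (adjusted p = 0.00232), and that of the other subunit, Tap2, was 0.66 ± 0.275 (adjusted p = 0.0986).

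Psme1 and Psme2 encode subunits of the proteasome activator PA28. Psme1 read 12.08, 11.86, 11.68, 11.82 and 11.81 in isoproterenol hearts, against 12.13, 12.04 and 12.2 in vehicle hearts, a narrow difference of -0.28 ± 0.0989 (adjusted p = 0.0484), and its direction flipped to 0.07 when the arrays were not normalised. Its dimmer probe set moved by -0.06 (adjusted p = 0.922). Psme2 changed by 0.42 ± 0.161 (adjusted p = 0.0651), and passed without isoproterenol replicate 1 (0.48, adjusted p = 0.0323).

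**Figure D3:**
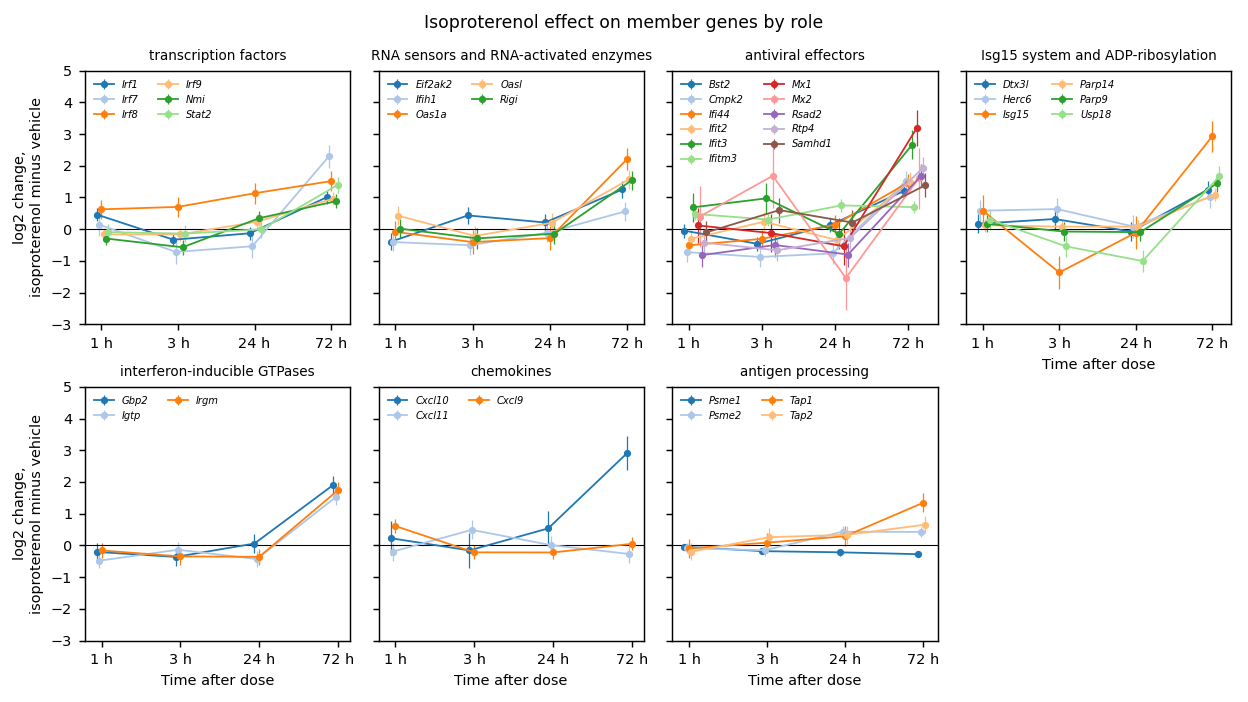
Log2 change, isoproterenol minus vehicle, ± standard error (y axis) of each measured gene at 1, 3, 24 and 72 h (x axis), in 7 panels by role. Up to 24 h most lines stay within 1 unit of 0, apart from Mx2 (1.68 at 3 h and -1.54 at 24 h) and Isg15 (-1.36 at 3 h), which did not pass, and Irf8 (1.13) and Usp18 (which fell by 1.00) at 24 h, which did, and they part at 72 h, where Mx1, at 3.18, is highest and the chemokines Cxcl9 and Cxcl11 and the activator subunit Psme1 stay between -0.28 and 0.05.

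The plot of changes by role shows that the 72 h values of the transcription factors, RNA sensors and GTPases are all above 0. Chemokines and antigen processing genes hold the values nearest to 0 or below it.

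All 5 isoproterenol hearts lay above all 3 vehicle hearts at 72 h for 24 of the 38 genes, against 11.8% of all genes. Of the 32 calls at 72 h, 28 also passed without each single array of that time. Ifitm3 missed the threshold without vehicle replicate 2 (0.57, adjusted p = 0.0758) or isoproterenol replicate 2 (0.55, adjusted p = 0.0515). Samhd1 missed it without vehicle replicate 3 (1.09, adjusted p = 0.101). For Herc6 the arrays that ended the call were vehicle replicates 1 and 3 and isoproterenol replicates 2, 3 and 5, each left out alone (adjusted p 0.0585 to 0.141). For Psme1 they were the same arrays and isoproterenol replicate 4 (0.0733 to 0.197). The Psme1 call also ended under 6 other alternatives (adjusted p 0.0743 to 0.487). With only the arrays of 72 h fitted, 27 genes were higher and 0 lower. Dtx3l (0.0692), Ifitm3 (0.0953), Samhd1 (0.0813) and Herc6 (0.0955) missed the threshold there. Herc6 also missed it with the replicate number as a block (0.0555). Over the alternatives the adjusted p reached 0.0307 for Mx1 and 0.0492 for Rsad2. The main fit pools the variance of a gene over all groups. At 72 h the median SD of the 38 genes was 0.777 in isoproterenol hearts and 0.26 in vehicle hearts. The standard errors and p-values given for 72 h can therefore understate the spread of the isoproterenol hearts.

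The split of calls over all genes at 72 h depended on scaling. It was 1649 genes higher and 1098 lower with quantile normalisation, 1733 and 287 with median centring, and 1658 and 4 with no normalisation, where the median of all genes moved to 0.46. The interferon response genes gave 32 higher and 0 lower under both of these, with medians of 1.57 with centring and 1.92 without normalisation.

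The promoters of the listed genes were searched for the ISRE and the GAS. The letters around the ISRE core matches are shown for the 6 members with the largest 72 h changes among those with such a window. They are also shown for the partner subunits Tap1 and Tap2, and for Psme2 and Ifih1, which like Tap2 did not pass. Promoters were those of RefSeq on GRCr8, 250 bases before to 50 after each annotated start, and one was found for 33 of the 39 genes. None was found for Usp18, Rigi, Mx2, Ifit2, Isg15 and Rtp4, which does not show that these genes lack one. The ISRE core was searched as GAAANNGAAA and the GAS core as TTCNNNGAA, on both strands, where N is any base. Each window is given 5′ to 3′ on the strand of its gene, and the capitals mark the ISRE core or its reverse complement.
Ifit3, chr1:241527262-241527311, plus strand: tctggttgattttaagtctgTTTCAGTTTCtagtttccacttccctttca
Irf7, chr1:205800063-205800112, minus strand: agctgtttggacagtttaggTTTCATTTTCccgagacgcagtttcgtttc
Oas1a, chr12:41330411-41330460, plus strand: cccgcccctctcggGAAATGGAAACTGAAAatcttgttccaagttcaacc
Cxcl10, chr14:15988816-15988852, plus strand: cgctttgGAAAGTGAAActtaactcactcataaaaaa
Gbp2, chr2:234005676-234005725, plus strand: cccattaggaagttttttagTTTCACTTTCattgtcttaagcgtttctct
Irgm, chr10:33742583-33742632, minus strand: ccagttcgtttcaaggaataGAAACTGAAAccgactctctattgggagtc
Tap1, chr20:4668635-4668684, minus strand: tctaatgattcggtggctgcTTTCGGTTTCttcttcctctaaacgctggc
Tap2 (not past the threshold), chr20:4652308-4652357, minus strand: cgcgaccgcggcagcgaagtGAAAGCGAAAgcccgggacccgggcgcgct
Psme2 (not past the threshold), chr15:33052775-33052824, minus strand: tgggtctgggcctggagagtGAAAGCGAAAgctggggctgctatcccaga
Ifih1 (not past the threshold), chr3:67683998-67684047, minus strand: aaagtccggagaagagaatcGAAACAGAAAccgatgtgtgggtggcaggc

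The ISRE core occurred in 19 of the 33 member promoters (57.6%), against 3.77% of 27457 rat promoters. The GAS core occurred in 13 of 33 (39.4%), against 8.68% of all promoters. The members were chosen as interferon response genes, so these shares describe the list and say nothing about these hearts. Most of the ISRE matches began close to the annotated start, for example 44 bases before it in Ifit3 and 31 bases before it in Gbp2, while that of Cxcl10 began 243 bases before it. In 17 of the 19 promoters a match began within 150 bases before the start. In Oas1a the capitals hold a pair of overlapping matches, and in Bst2 a GAS core overlaps the ISRE core by some letters. The promoters of Irgm, Igtp and Parp14 each hold a GAS core a few bases before the ISRE core, without overlap.

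Matches occurred both in genes that were higher and in genes that did not pass. Of 26 promoters of genes higher at 72 h, 16 held the ISRE core and 20 held either core, and of the 5 promoters of genes that did not pass, 3 held the ISRE core and 5 held either. The median 72 h change was 1.34 over 19 genes with the ISRE core and 1.39 over 13 measured genes without it. Mx1, with the largest change, had neither core in its window, like Oasl, Stat2, Parp9, Herc6 and Cmpk2. A match is a stretch of letters and does not show binding, and a window without one says nothing about the factor.

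**Figure D4:**
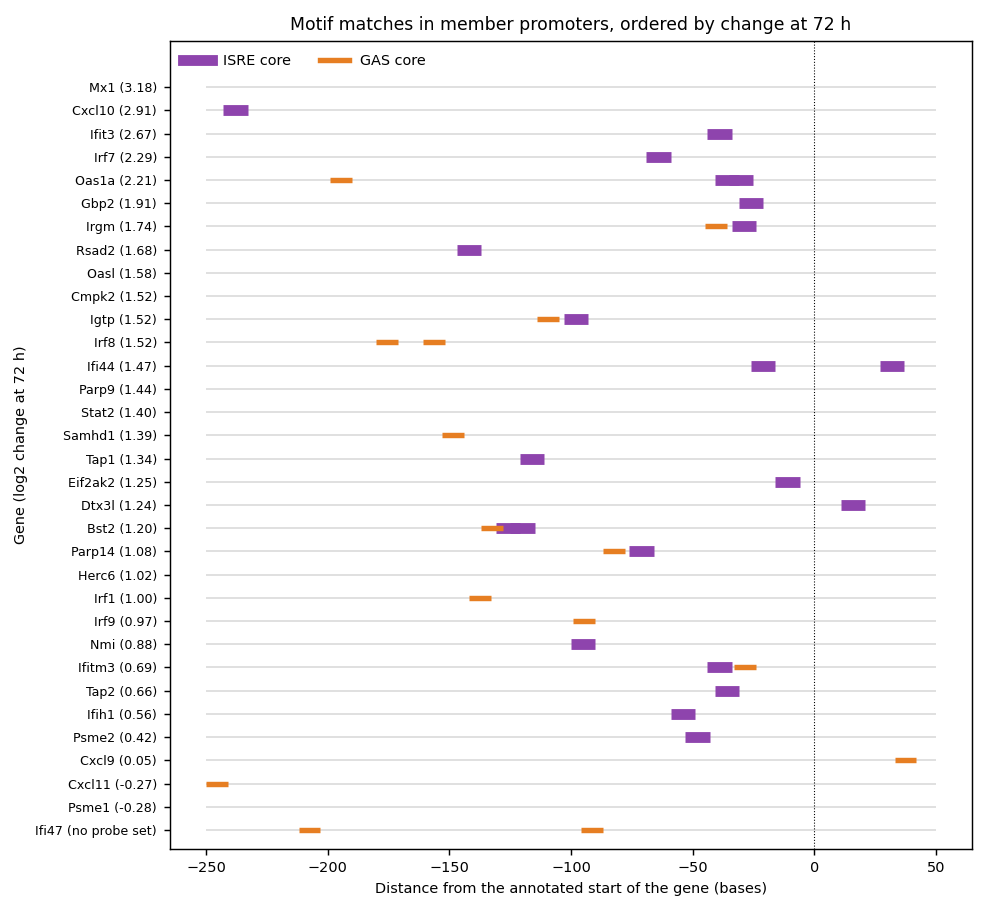
Places of the ISRE and GAS core matches in the 33 member promoters (rows, ordered by 72 h change), as distance in bases from the annotated start (x axis, from 250 before to 50 after). Matches lie throughout the order of change, and Mx1 has none.

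The map of core matches places those letters in the promoters without showing them. Matches of the ISRE core gather before the start for most genes that have one, and the row of Cxcl10 has its match at the far end.

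At 1 h none of the 38 genes passed, against a background of 2.37% higher and 1.04% lower over all genes. An unadjusted p under 0.05 in limma was found for 5 of the 38, against 1661 of all 12451 genes. These 5 were Irf1 (0.46), Cxcl9 (0.61) and Ifitm3 (0.48) above vehicle, and Rsad2 (-0.82) and Cmpk2 (-0.72) below it.

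At 3 h none passed, against 6.95% higher and 6.33% lower over all genes. Of the 38, 4 had an unadjusted p under 0.05 in limma, against 3385 of all 12451 genes. Irf8 was at 0.70 and Nmi at -0.57. Isg15 read 6.44, 4.42, 5.66 and 6.58 in isoproterenol hearts, against 7.25, 7.43 and 6.74 in vehicle hearts, a difference of -1.36 (adjusted p = 0.0845). Cmpk2 was at -0.87 (adjusted p = 0.0731). All isoproterenol hearts thus lay below the vehicle hearts for Isg15, but the difference missed the threshold. Mx2 read 5.94, 6.59, 7.17 and 6.98 in isoproterenol hearts on its brighter probe set, against 4.92, 4.83 and 5.21 in vehicle hearts, without passing (1.68, adjusted p = 0.318). Its groups did not overlap at 3 h, with isoproterenol above, nor at 24 h, with isoproterenol below (-1.54, adjusted p = 0.366).

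At 24 h, 2 of 38 genes were higher and 1 lower, against 10.0% higher and 7.16% lower over all genes. An unadjusted p under 0.05 in limma was found for 7 of the 38, against 3864 of all 12451 genes. Of these 7, 3 were above vehicle and 4 below it. Rsad2 read 7.25 to 8.29 in isoproterenol hearts and 8.34 to 8.66 in vehicle hearts. Cmpk2 read 6.19 to 6.65 and 7.11 to 7.23. Both lay below all vehicle hearts without passing. With only the arrays of 24 h fitted, both passed, at -0.80 (adjusted p = 0.0498) and -0.79 (adjusted p = 0.0205). Irf8 read 7.69, 8.16, 6.38 and 7.83 in isoproterenol hearts, against 6.49, 6.15 and 6.5 in vehicle hearts, with replicate 3 inside the vehicle range. Its change was 1.13 ± 0.323 (adjusted p = 0.0176). Ifitm3 read 11.16, 11.62, 10.86 and 10.94, against 10.58, 10.4 and 10.19 in vehicle hearts, a change of 0.75 ± 0.207 (adjusted p = 0.0144) between groups that did not overlap. Usp18 read 7.41, 6.76, 7.12 and 6.71 in isoproterenol hearts, against 7.49, 8.16 and 8.35 in vehicle hearts, so that it fell by 1.00 ± 0.343 (adjusted p = 0.0492).

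The actin 3′ minus 5′ log2 signal, a sign of RNA quality, differed at 24 h, at 0.872 ± 0.374 in isoproterenol hearts and 1.64 ± 0.249 in vehicle hearts (SD, n = 4 and 3). Its part in the 24 h values and in the differences between 72 and 24 h was not tested. None of these 3 calls at 24 h held without each single array. Irf8 missed the threshold without vehicle replicate 2 (1.02, adjusted p = 0.082), isoproterenol replicate 2 (0.92, adjusted p = 0.0974) or isoproterenol replicate 4 (1.03, adjusted p = 0.061). Ifitm3 missed it without vehicle replicate 3 (0.65, adjusted p = 0.0878) or isoproterenol replicate 2 (0.59, adjusted p = 0.0877). Usp18 missed it without vehicle replicate 2 (adjusted p = 0.149) or 3 (0.208), or isoproterenol replicate 2 (0.142) or 4 (0.131). The Usp18 call also ended under 8 other alternatives (adjusted p 0.0505 to 0.53), that of Irf8 with only the arrays of 24 h (0.0553) and that of Ifitm3 with trimmed-mean scaling (0.0505).

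No time course of their own was detected in the vehicle hearts for these genes. In a test of any difference between the 4 vehicle times, none of the 38 genes passed and none had an unadjusted p under 0.05 in limma, with a smallest adjusted p of 0.485. Over all genes 0.0562% passed.

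The change at 72 h was set against the change at 24 h as a difference of differences, and 17 of the 38 genes were higher at 72 h, against 1.84% higher and 0.875% lower over all genes. The median difference of the 38 genes was 1.35. Mx1 had 3.72 ± 0.812 (adjusted p = 0.0114), Irf7 2.83 ± 0.528 (adjusted p = 0.00336) and Usp18, which was lower at 24 h, 2.67 ± 0.474 (adjusted p = 0.00211). A mean below vehicle at 24 h enlarges such a difference. This also holds for Rsad2 (2.48) and Cmpk2 (2.28), which lay below vehicle at 24 h without passing. The GTPase Irgm had the smallest adjusted p, with 2.10 ± 0.354 (adjusted p = 0.00126). Cxcl10 had 2.37 ± 0.771 and did not pass (adjusted p = 0.108).

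Earlier steps of the time course had no call among the 38 genes. None differed between 3 and 1 h, where 0.522% of all genes were higher and 0.209% lower. There 4 of the 38 had an unadjusted p under 0.05 in limma, against 1619 of all 12451 genes. None differed between 24 and 3 h, where 4.83% of all genes were higher and 3.49% lower. There 3 of the 38 had an unadjusted p under 0.05 in limma, against 3148 of all 12451 genes.

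The 72 h against 24 h differences of Irf7, Mx1, Oas1a, Usp18, Rsad2, Igtp, Irgm, Rtp4 and Cmpk2, 9 of the 17, passed without each single array of those times. Isg15 missed the threshold without vehicle 24 h replicate 2 (2.96, adjusted p = 0.057) or vehicle 72 h replicate 1 (2.90, adjusted p = 0.0694). Ifit2 missed it without vehicle 24 h replicate 2 (adjusted p = 0.051) or vehicle 72 h replicate 3 (0.052), and Gbp2 without vehicle 72 h replicate 1 (0.0538). Ifit3 missed it without vehicle 24 h replicate 2 (0.0513) or vehicle 72 h replicate 1 (0.0538) or 3 (0.0761). Irf1 missed it when 1 of these arrays was left out: vehicle replicates 1 and 3 and isoproterenol replicates 3 and 4 of 24 h, and vehicle replicate 1 and isoproterenol replicates 2 and 5 of 72 h (adjusted p 0.0509 to 0.142). Parp9, Stat2 and Rigi each missed it without any 1 of the 3 vehicle arrays of 24 h, isoproterenol replicates 1, 2 and 4 of 24 h, vehicle replicates 1 and 3 of 72 h and isoproterenol replicate 5 of 72 h. Stat2 and Rigi also missed it without isoproterenol replicate 3 of 72 h, and Rigi without replicate 2. The adjusted p-values were 0.0517 to 0.116 for Parp9, 0.0573 to 0.101 for Stat2 and 0.0504 to 0.169 for Rigi. The count fell to 10 without vehicle 72 h replicate 1. It was 8 with no normalisation, where Irf1, Stat2, Rigi, Parp9, Ifit2, Gbp2 (adjusted p = 0.342), Igtp (0.165), Irgm (0.132) and Rtp4 (0.0754) missed the threshold. With the mean of a gene's probe sets, Stat2 (0.0873), Ifit2 (0.0511) and Igtp (0.0616) missed it. With the replicate number as a block, Irf1 (0.0654), Stat2 (0.0737), Rigi (0.0636) and Parp9 (0.062) missed it.

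The 5 isoproterenol hearts at 72 h differed widely in these genes. The median SD over the 38 genes was 0.777 in isoproterenol hearts and 0.26 in vehicle hearts, against 0.263 and 0.241 over all genes. A wide spread was not particular to them. In isoproterenol hearts it was 0.832 over the 17 macrophage markers that were higher at 72 h, and 0.404 over all 1649 genes that were higher. Of the 31 genes that were higher, 29 (93.5%) had their highest value in replicate 2 and 26 (83.9%) their lowest in replicate 1. Among the 1618 other genes that were higher at 72 h, replicate 1 was lowest for 82.4%, replicate 3 was highest for 64.2% and replicate 2 for 24.5%. The low place of replicate 1 was therefore shared with the other genes, and whether the place of replicate 2 differs between these sets was not tested. Replicate 2 had the lowest total intensity of the 30 arrays before normalisation. The part of this in the order of the hearts was not tested. The actin 3′ minus 5′ log2 signal was 1.3 ± 0.415 in isoproterenol hearts and 1.47 ± 0.555 in vehicle hearts at 72 h (SD, n = 5 and 3). It was 1.84 in isoproterenol replicate 2, the highest of its group, where the others had 0.87 to 1.52. Its part in the order of the hearts was not tested either.

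**Figure D5:**
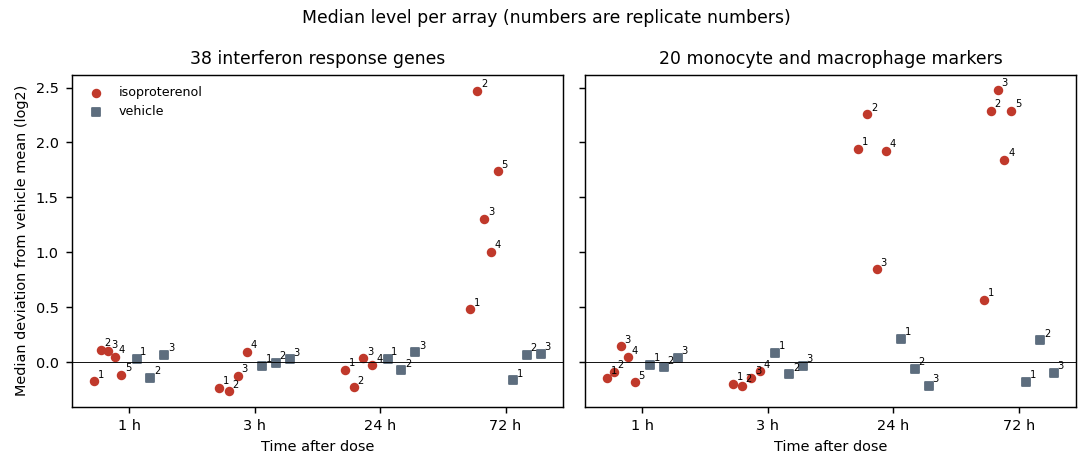
Median deviation from the vehicle mean of the same time, in log2 units (y axis), of the 38 interferon response genes (left) and of 20 monocyte and macrophage markers (right) on each array at 1, 3, 24 and 72 h (x axis), isoproterenol left of vehicle. At 24 h the isoproterenol arrays are raised for the markers (0.848 to 2.258) but near 0 for the interferon response genes (-0.229 to 0.035), and at 72 h they are raised for both.

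The plot of array medians sets the genes beside monocyte and macrophage markers. Over the 38 genes, the isoproterenol hearts at 72 h had medians of 0.484, 2.468, 1.308, 1.005 and 1.737, against -0.162, 0.066 and 0.077 in vehicle hearts. The macrophage markers had 0.567, 2.288, 2.481, 1.84 and 2.288 in the same isoproterenol hearts. Replicate 1 was lowest for both lists.

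Of the 20 monocyte and macrophage markers, 14 were higher at 24 h, with a median change of 1.85, and 17 at 72 h, with a median of 1.87. Over all genes 10.0% were higher at 24 h and 13.2% at 72 h. At 72 h their mean level was 7.04 to 8.84 in isoproterenol hearts and 6.22 to 6.59 in vehicle hearts. At 24 h it was 7.42 to 8.71 in isoproterenol hearts and 6.5 to 6.87 in vehicle hearts. Cybb, the phagocyte oxidase subunit, was higher by 3.42 at 72 h, and the lysosomal protein Cd68 by 2.83. The markers were thus raised at both times while the interferon response genes were raised at 72 h, and the part of macrophage number in the 72 h values was not tested.

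Markers of other cell types were read in the same way. Of 10 listed neutrophil markers 5 were tested, and 4 of these were higher at 3 h, against 6.95% of all genes, with a median of 1.91. At 72 h, 0 of 5 were higher. Their mean level at 3 h was 6.65 to 7.03 in isoproterenol hearts and 5.12 to 5.52 in vehicle hearts, near the filter level of 5.29. The filter asked for 3 arrays, so a dim marker could reach the test through the arrays where it was high. The share of 4 of 5 can therefore overstate the rise of the list. T and NK cell markers were higher in 2 of 13 (15.4%) at 72 h, near the 13.2% of all genes, Prf1 (0.87, lost without vehicle replicate 2 or 3) and Lck (0.52, lost without vehicle replicate 1 or 3 or isoproterenol replicate 3), with levels of 5.53 to 5.77 in isoproterenol hearts and 5.43 to 5.49 in vehicle hearts, and before normalisation Ncr1 and Gzma were below the filter level on every array. Fibroblast genes were higher in 5 of 7 at 72 h, with a median of 1.08, where 13.2% of all genes were higher and 8.82% lower. At 24 h, 0 of these 7 were higher and 2 lower, Dcn (-0.68) and Dpt (-0.59, lost without any of 5 single arrays). The change at 72 h exceeded that at 24 h in 4 of the 7, against 1.84% of all genes. A rise at 72 h and not at 24 h was thus not particular to the interferon response genes. At 72 h endothelial markers were higher in 0 of 7 and lower in 1, Tie1, a call lost without any 1 vehicle array or isoproterenol replicate 3. Of 8 cardiomyocyte markers, 0 were higher and 1, Myl3, fell by 0.24, a call lost without any of 5 single arrays. Their mean level was 12.85 to 13.12 in isoproterenol hearts and 13.11 to 13.14 in vehicle hearts, far above the filter level, as the tissue label calls for.

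Of the interferons and related cytokines, 3 of 14 listed genes had a tested probe set, and none of the 3 was an interferon. Before normalisation, Ifnb1, which encodes interferon beta, was below the filter level on all arrays, and Ifng and Ifnk reached it on 1 array each. Il18, a cytokine that drives interferon gamma release, was higher by 1.62 ± 0.34 at 24 h (adjusted p = 0.00175) and 1.40 ± 0.325 at 72 h (adjusted p = 0.00291). Il15 fell by 0.78 ± 0.209 at 3 h (adjusted p = 0.0122), a call lost without vehicle or isoproterenol replicate 2. A signal below the filter level is not a measure of absence.

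Of 20 measured receptor and signalling genes, 4 (20%) were higher at 72 h, against 13.2% of all genes, so the count says little about the list. They were the phosphatase Ptpn6 (2.24), Irf5 (1.75), the kinase Tyk2 (0.75) and the receptor chain Ifngr1 (0.52). The Tyk2 call was lost when vehicle replicate 1, vehicle replicate 3, isoproterenol replicate 2 or isoproterenol replicate 3 was left out, and when only the arrays of 72 h were fitted (adjusted p = 0.0628). Both chains of the type I receptor did not pass, with changes of 0.05 for Ifnar1 (adjusted p = 0.874) and 0.10 for Ifnar2 (adjusted p = 0.773).

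Some genes of this list changed within hours of the dose. Socs3, an inhibitor of Jak kinases, was higher by 2.60 ± 0.277 at 1 h and 1.70 at 3 h, when Jak2 was at 1.35. Ifnlr1, a chain of the type III receptor, was higher by 1.82 ± 0.236 at 3 h, and by 0.86 at 1 h, a call lost when any 1 of the vehicle arrays, or of isoproterenol replicates 1 and 4, was left out. At 24 h Ptpn6 (2.02) and Irf5 (1.93) were higher and Jak1 was lower (-0.34), but the direction of Jak1 flipped to 0.20 without normalisation and its call was lost without any single array of that time but isoproterenol replicate 3.

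Genes that sense nucleic acids were higher in 6 of 14 measured at 72 h, against 13.2% of all genes. Dhx58, a helicase related to Rigi, changed by 2.07 ± 0.345, the endosomal RNA receptors Tlr7 and Tlr8 by 1.91 and 1.70, the adaptor Sting1 by 1.91 and the sensor Zbp1 by 1.86. Myd88, the adaptor of most Toll-like receptors, was higher at every time, by 1.31 at 1 h, 2.30 at 3 h, 0.73 at 24 h and 0.92 at 72 h. Mavs, the adaptor downstream of Rigi, fell by 1.06 at 24 h, a call that ended with the mean of its probe sets (-0.58, adjusted p = 0.0517) and with no normalisation (-0.43, adjusted p = 0.444). It was at -0.74 at 3 h, a call lost when any 1 array of that time other than isoproterenol replicate 1 was left out, and did not pass at 72 h. With no normalisation the calls of Myd88 at 1 h, of Jak2 and Il15 at 3 h, and of Psmb9 and RT1-S3 at 3 h, described next, also ended.

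Class I presentation and immunoproteasome genes were higher in 8 of 14 measured at 72 h and lower in 0, with a median change of 0.72. Over all genes 13.2% were higher and 8.82% lower. The immunoproteasome subunits Psmb8, Psmb9 and Psmb10 changed by 1.73, 1.65 and 0.76, the peptidase Erap1 by 1.14 and the class I regulator Nlrc5 by 0.88. B2m, the light chain of class I molecules, changed by 0.50. Psmb9 and the class I gene RT1-S3 (1.34) were higher at 72 h but lower at 3 h, at -0.83 and -0.99. Both 3 h calls were lost without isoproterenol replicate 2, and that of Psmb9 also without vehicle replicate 1. RT1-CE5, of the same list, went the other way at 3 h and was higher by 1.26 (adjusted p = 0.00545). Its call was lost without vehicle replicate 3, with no normalisation and with array weights. It was also lost with the mean of its probe sets and with only the arrays of that time.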

How the data were processed

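Heart RNA was hybridised to RAT230_2 Affymetrix arrays, and the deposited values are 1 linear intensity per probe set and array, made by the authors. The sources used here do not give how they were computed or scaled. Array medians spanned 1.22 log2 units, so arrays were quantile normalised after log2(intensity + 16). Probe sets at or above the 40th percentile of all values (intensity 23) on at least 3 arrays were tested, 24292 of 31099 with 57 controls left out.

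limma 3.58.1 in R 4.3.3 fitted 8 group means over 30 arrays (22 residual degrees of freedom, intensity trend), with Benjamini-Hochberg adjustment over all tested probe sets at 0.05. The fit was tested on simulated data. The platform annotation gave 20826 probe sets 1 gene, 436 several and 9780 were not listed. Of 49 member probe sets, 48 were tested, and a gene stands by the brightest. The named genes are the members, with 10 having several tested probe sets. The members and lists were chosen with earlier results of these data known. The number of arrays limits the precision. Array numbers in the labels run from 33 to 62 for isoproterenol and 4 to 21 for vehicle, so the order of the arrays is confounded with treatment, and both cannot be told apart. Within each treatment the numbers also rise with time, for example 53 to 57 at 24 h and 58 to 62 at 72 h for isoproterenol. Array order and time therefore cannot be told apart either. Correlations within groups were 0.934 to 0.984, and no arrays were identical. Alternatives changed the normalisation, offset, filter, weights, arrays fitted, replicate block and single arrays.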

Additional observations from a re-analysis of the deposited data

Results flagged for a closer look

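Single hearts stood apart in 3 of 152 gene and group sets of 4 or 5 arrays, where chance gives about 1 in 20. Cxcl9 read 6.15 in isoproterenol replicate 3 at 24 h, with the next value at 5.8 and a gap of 0.897 of the group's range. Cmpk2 read 7.15 in isoproterenol replicate 3 at 1 h, with the next value at 6.34 and a gap of 0.745 of the range. Tap1 read 8.24 in isoproterenol replicate 2 at 72 h, with the next value at 7.59 and a gap of 0.739 of the range.

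The effect of isoproterenol differed between 72 h and 24 h in 17 genes by a test of the difference itself, in log2 units of the 72 h change minus the 24 h change. The differences were 3.72 for Mx1, 3.04 for Isg15, 2.83 for Irf7, 2.81 for Ifit3, 2.67 for Usp18, 2.49 for Oas1a, 2.48 for Rsad2, 2.28 for Cmpk2, 2.22 for Rtp4, 2.10 for Irgm, 1.95 for Igtp, 1.85 for Gbp2, 1.85 for Ifit2, 1.68 for Rigi, 1.53 for Parp9, 1.40 for Stat2 and 1.13 for Irf1. All 17 were higher at 72 h, and 8 of them missed the threshold without some single array. The macrophage markers were raised at both times, and their part in these differences was not tested.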

How the results depend on the processing

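The count of 32 changed members at 72 h stayed between 27 and 34 over the alternatives to normalisation, offset, filter, weights and arrays fitted, and between 29 and 34 without single arrays. Counts at other times were small and moved more. At 1 h, 3 passed with array weights and 4 with only the arrays of that time. At 3 h, 1 passed with median centring, 1 with no normalisation, 3 with trimmed-mean scaling, 1 with array weights, 2 with only that time, and 0 to 1 without single arrays. At 24 h, 1 passed with trimmed-mean scaling, 5 with array weights, 5 with only that time, and 0 to 4 without single arrays. Between 24 and 3 h, 2 differed with no normalisation, 1 with trimmed-mean scaling, 1 with array weights, and 0 to 2 without single arrays. Between 72 and 24 h, 8 differed with no normalisation, 26 with array weights, and 10 to 24 without single arrays. The direction of Jak1 at 24 h was 0.20 and that of Psme1 at 72 h 0.0709 with no normalisation. The causes were not tested. With the replicate number as a block, 30 members passed at 72 h, 2 at 24 h, 0 at 1 h and 0 at 3 h, and 14 differed between 72 and 24 h. The deviations of arrays of the same number had correlations of -0.0739 to 0.125 over 12 pairs, with 2 above 0.1. In 5 of the 12 the own number gave the highest correlation, among them replicates 1, 2 and 3 at 3 h. Whether this exceeds chance was not tested. Over all genes, the split of higher and lower calls at 24 h was 1246 and 892, against 1166 and 411 with median centring and 1963 and 13 with no normalisation. At 3 h it was 865 and 788, against 789 and 372 with centring, 193 and 110 with no normalisation, and 826 and 1204 with trimmed-mean scaling. Dim probe sets near the filter level, such as those of Ifnb1 and Ifng, give no measure of change.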
